A study of Mus musculus with 16 samples.

Results

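Keratins are the intermediate filament proteins of epithelia. The genes of this family carried by the array were collected by name: every gene name made of Krt, a number and at most 1 lower-case letter, 52 genes of 34650 gene names, measured by 68 probes. Of these, 28 encode type I and 24 type II keratins. For the 14 keratins with more than 1 probe, the probe with the highest mean over all arrays stood for the gene, and 51 of the 52 passed the filter on dim probes (well above background on at least 2 arrays). Krt25, an inner root sheath keratin, was well above background on 0 of 16 arrays and is given no fold. Of the 52, 31 were well above background on every array that carries a background flag for them.

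A keratin filament needs 1 type I and 1 type II partner, and each layer of the skin makes its own pairs. Basal keratinocytes make Krt5 with Krt14, cells that leave the basal layer make Krt1 with Krt10, and wounded or follicular epithelium makes Krt6, Krt16 and Krt17. Inside the hair follicle the companion layer makes Krt75, the inner root sheath its own set such as Krt27 and Krt71, and the hair shaft the hard hair keratins such as Krt85.

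The arrays compare sorted mouse skin cells, 1 array per group and 16 in all. Hair follicle stem cells (HFSC), sorted for high CD34 and ITGA6 and no Sca1 (encoded by Ly6a), came as pairs labelled tHFSC and aHFSC, abbreviations that the labels do not spell out, from 6 backgrounds. Interfollicular epidermal cells (IFE), the keratinocytes between follicles, were sorted for high ITGA6 and high Sca1 in 4 backgrounds, young and aged, wild type (WT) and hCOL17A1 transgenic (tg). The young groups were aged 12 weeks, the aged groups 25 to 26 months. The young HFSC backgrounds were C57BL/6 WT control, Col17a1 conditional knockout (Col17a1 flox/flox, K15crePR), aPKCλ conditional knockout (aPKCλ flox/flox, K15crePR) and hCOL17A1 tg, and the aged ones C57BL/6 WT and hCOL17A1 tg. K15crePR is a Cre driven by the promoter of keratin 15, itself a member of the family, and RU486 switches such a Cre on. RU486 (2.5 mg for 5 days, at 8 weeks of age) is given for the control and Col17a1 knockout arrays, RU486 without a dose of their own for the aPKCλ knockout arrays, and none is mentioned for transgenic, aged or IFE arrays. The labels give hair plucking, with a time of 3 days, only for the aHFSC arrays of control and Col17a1 knockout. The promoter of the human COL17A1 transgene is not given in the sources used here. Nothing says whether an array holds 1 mouse or several pooled, so a p-value here measures the scatter of arrays around an additive fit, not the spread between mice.

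A level below is on a log2 scale on which 0 stands for the 75th percentile of the array's own signals; levels are compared between arrays for 1 probe, never between probes. The 8 young HFSC arrays lie on slide 1, and the 4 aged HFSC and 4 IFE arrays on slide 2. In 14 arrays 74.0% to 80.0% of spots were well above background, against 69.1% on the tHFSC and 59.6% on the aHFSC array of aged hCOL17A1 mice. The young hCOL17A1 IFE array stood apart from the other IFE arrays (correlation over all genes 0.919 to 0.926, against 0.975 to 0.979 among the other 3), and it carried Cd34, the HFSC sort gene, at 0.32 where the others read between -6.45 and -3.87. The scanner file of the control tHFSC array ends early, so its values for Krt4, Krt27, Krt73, Krt81 and Krt82 come from the deposited value table. Sort genes followed the gates: Cd34 was higher and Ly6a lower in both HFSC states than in IFE (log2 differences for tHFSC of 9.72 and -5.62, with Cd34 above background on only 2 of 4 IFE arrays). Col17a1 read 6.75 and 5.97 on the knockout tHFSC and aHFSC arrays against 7.02 and 6.17 on the control arrays, and Prkci (aPKCλ) 3.45 and 3.28 on its knockout arrays against 4.25 and 4.37; whether these probes lie in the deleted parts is not given, so they check little.

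The keratins that separated follicle from epidermis are best seen through the probes that read them. Krt6a, Krt17 and Krt24 were higher in HFSC than in IFE, Krt1 lower, and Krt80 lower in aHFSC than in tHFSC; the last 30 bases of each 60-base probe, as the array design gives them, are shown because each of these results rests on that one probe.
Krt6a: tcaccaagagcttgtctctggtcccagatg
Krt17: ttctgaacactgaaataaatgaccatggtg
Krt24: gtgacctggagatgcagattgagggtctga
Krt1: atggtaacaatcccactttatgttctgctg
Krt80: tgcttgacttctgcccactgcttgccctga
On mm9, the build named in the file headers, the whole probes lie at chr15:101520862-101520921 (Krt6a), chr11:100117535-100117594 (Krt17), chr11:99143994-99144053 (Krt24), chr15:101676107-101676166 (Krt1) and chr15:101180014-101180073 (Krt80), all on the minus strand. The family sits almost entirely in a type I cluster on chromosome 11, which held 27 of the 52 probes used, and a type II cluster on chromosome 15, which held 24 including that of the type I gene Krt18.

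The first question is how follicle stem cells and interfollicular keratinocytes differ in keratins. In tHFSC against IFE, 12 of 51 keratins passed the test (limma across all genes, two-sided, Benjamini-Hochberg adjusted p under 0.05), 3 higher and 9 lower, where 6.4% of all 31612 genes tested passed, 2.1% higher and 4.3% lower. In aHFSC against IFE, 11 of 51 passed, 2 higher and 9 lower, where 4.32% of all genes passed, 1.64% higher and 2.68% lower. The median log2 difference was -0.12 and -0.29 over the keratins and -0.05 and -0.14 over all genes. At an unadjusted p under 0.05 there were 18 and 22 keratins. Slide enters both, since all IFE arrays lie on slide 2 and the young HFSC arrays on slide 1: on slide 2 alone 1 keratin (Krt1) passed in tHFSC and 0 in aHFSC, and with only the arrays of the states compared 6 and 2 passed. Both comparisons use the same 4 IFE arrays, so their counts are not independent of each other. In sorted pools, fewer cells making a keratin and less RNA per cell cannot be told apart.

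**Figure D1:**
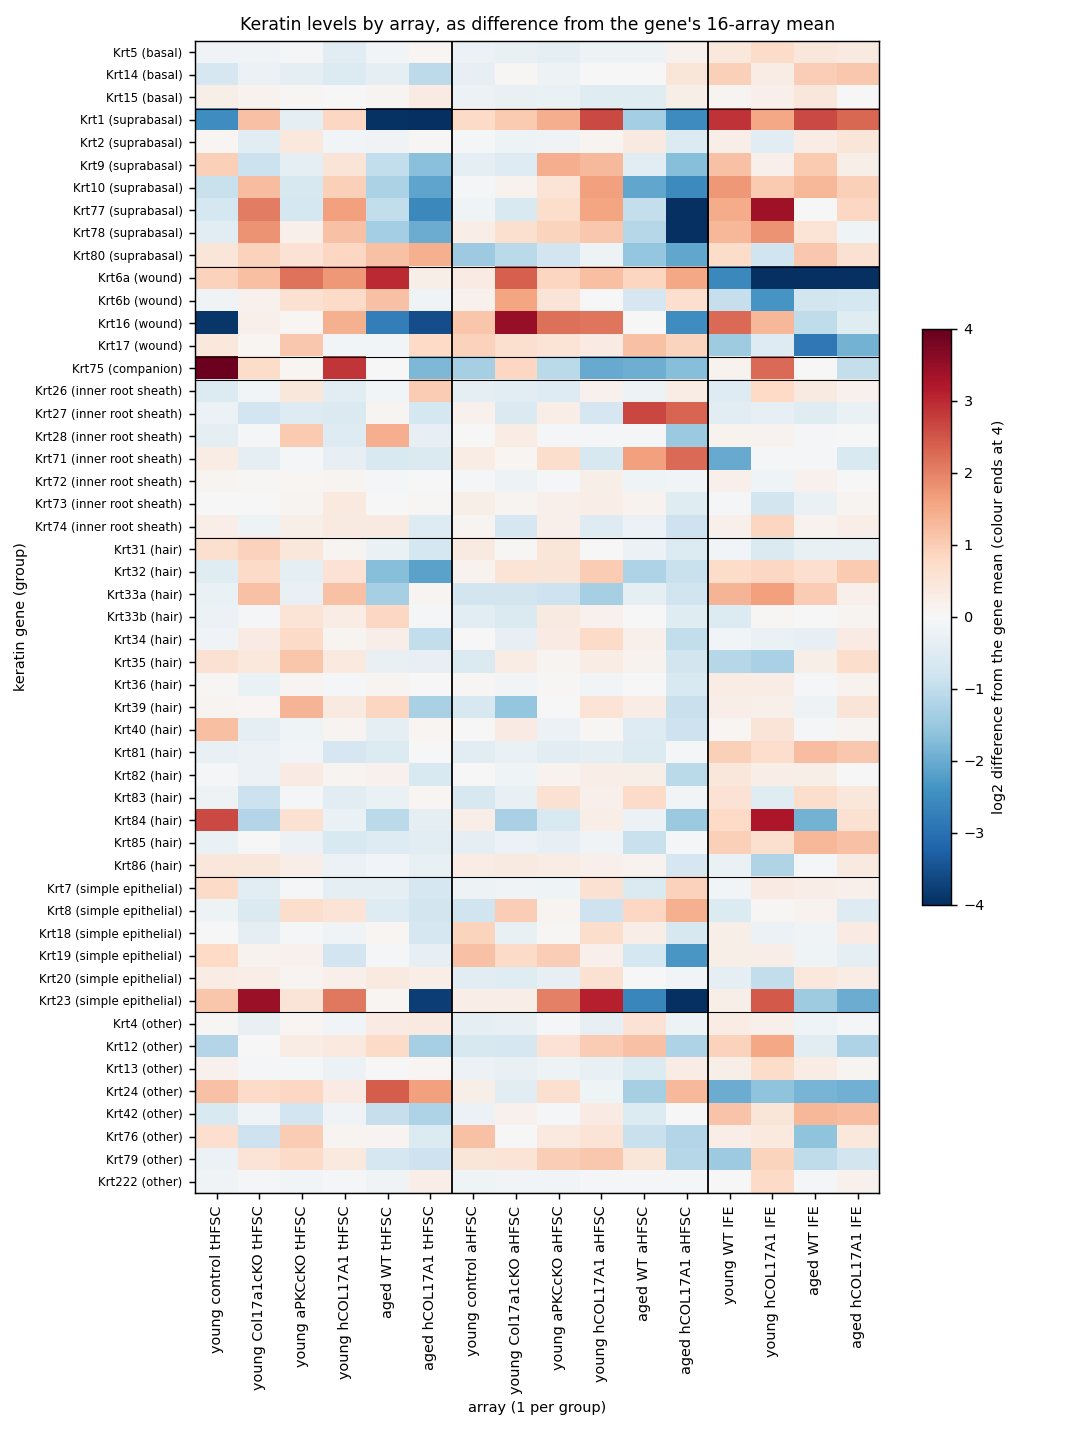
Each of the 51 keratins that passed the filter (vertical axis, ordered by role) is shown on each of the 16 arrays (horizontal axis) as its log2 level minus the mean of that gene over the 16 arrays; colours end at 4. The 4 IFE arrays are low for Krt6a and Krt17 and high for Krt1. Within tHFSC and within aHFSC, the aged hCOL17A1 array is the lowest for Krt1 and for Krt10.

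Among basal keratins, Krt5 and Krt14, the filament pair of the basal layer, were both lower in HFSC. Krt5 read 8.05, 8.37 and 8.55 (lowest, median and highest) on the 6 tHFSC arrays, 8.13, 8.27 and 8.65 on the 6 aHFSC arrays, and 8.93, 9.23, 8.93 and 8.85 on the young WT, young hCOL17A1, aged WT and aged hCOL17A1 IFE arrays. All 12 HFSC arrays lie below all 4 IFE arrays. Krt5 was lower by a log2 difference of -0.61 ± 0.10 (SE) in tHFSC (limma adjusted p = 0.00898) and -0.65 ± 0.10 in aHFSC (limma adjusted p = 0.00780), in 4 of 4 matched backgrounds each. Without the young hCOL17A1 or the aged WT IFE array the adjusted p rose to 0.0551 and 0.0532 at most. A second Krt5 probe gave -0.57 ± 0.21 and -0.48 ± 0.21, which did not pass (limma adjusted p = 0.186 and 0.318).

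Krt14 read 7.53, 8.09 and 8.31 on the tHFSC arrays, 8.23, 8.55 and 9.03 on the aHFSC arrays, and 9.51, 8.86, 9.55 and 9.66 on the IFE arrays in the same order. The tHFSC arrays lie wholly below IFE, and of the aHFSC arrays only that of aged hCOL17A1 mice reaches into the IFE range. The difference was -1.42 ± 0.20 for tHFSC (limma adjusted p = 0.00567) and -0.88 ± 0.20 for aHFSC (limma adjusted p = 0.0479), the second lost on leaving out any of 14 arrays (adjusted p up to 0.171; the exceptions were both aged hCOL17A1 HFSC arrays).

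Krt15, the keratin of the bulge where HFSC reside and the source of the Cre promoter, was called in neither comparison with IFE. It read 6.41, 6.54 and 6.75 on tHFSC, 5.92, 6.14 and 6.66 on aHFSC, and 6.53, 6.61, 6.88 and 6.39 on IFE arrays, which overlap both. The differences were -0.02 ± 0.12 and -0.42 ± 0.12 (limma adjusted p = 0.941 and 0.103). Under quantile normalization the tHFSC value turned to 0.40 and passed (limma adjusted p = 0.0195), so its direction is not settled. The aHFSC value passed at -0.56 (limma adjusted p = 0.0426) without the young WT or without the aged hCOL17A1 IFE array.

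Of the 7 suprabasal keratins, among which Krt80 was counted, 6 had a negative difference from IFE in tHFSC and 7 in aHFSC, with medians of -1.56 and -1.93. Of all 31612 genes, 16903 and 19408 had a negative difference. In these comparisons 2 and 3 of the 7 passed, all lower. Krt1, the type II keratin of cells leaving the basal layer, read -2.86, 2.31 and 4.92 on the tHFSC arrays, 1.22, 4.65 and 6.38 on the aHFSC arrays, and 6.62, 5.28, 6.37 and 6.04 on the IFE arrays. The 6 tHFSC arrays lie wholly below IFE and span a wide range, while the young hCOL17A1 aHFSC array lies inside the IFE range. The differences were -5.04 ± 0.55 for tHFSC (limma adjusted p = 0.00175, lower in 4 of 4 backgrounds) and -2.80 ± 0.55 for aHFSC (limma adjusted p = 0.0266, lower in 3 of 4). The aHFSC call was lost on leaving out any of 8 arrays (adjusted p up to 0.106): both aPKCλ knockout arrays, the young hCOL17A1 and aged WT aHFSC arrays, or any IFE array.

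Krt10, the type I partner of Krt1, read 2.18, 3.52 and 5.51 on the tHFSC arrays, 1.73, 4.35 and 5.92 on the aHFSC arrays, and 6.01, 5.35, 5.61 and 5.24 on the IFE arrays. The arrays of Col17a1 knockout and young hCOL17A1 tHFSC and of young hCOL17A1 aHFSC lie inside the IFE range, the other 9 HFSC arrays below it. The differences were -2.08 ± 0.37 (limma adjusted p = 0.0130) and -2.02 ± 0.37 (limma adjusted p = 0.0188). Each call was lost on leaving out any of the 4 IFE arrays or 1 HFSC array (control tHFSC for the first, aged WT aHFSC for the second; adjusted p up to 0.0681 and 0.0963). A second Krt10 probe gave -2.75 ± 0.39 and -2.36 ± 0.39 (limma adjusted p = 0.00653 and 0.0146).

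Of the other suprabasal keratins, Krt77, a type II keratin of upper layers, read 0.14, 2.03 and 4.79 on tHFSC arrays and 4.23, 6.11, 2.73 and 3.56 on IFE arrays; it was -2.06 ± 0.62 in tHFSC and -2.58 ± 0.62 in aHFSC, which did not pass (limma adjusted p = 0.0930 and 0.0561). Krt78 gave -1.56 ± 0.52 and -1.93 ± 0.52 with the chosen probe (limma adjusted p = 0.123 and 0.0809), while its second probe, which shares 50 bases with the first, gave -2.12 and -2.35 and passed (limma adjusted p = 0.0226 and 0.0187). Krt2, a keratin of late suprabasal cells, gave -0.15 and -0.22, and its dimmer second probe -2.82 and -1.92, none of which passed. Krt9, the keratin of palms and soles, was above background on only 6 arrays and gave -1.14 and -0.79, neither of which passed.

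Of the 4 wound keratins, Krt6a and Krt17 were called higher in both HFSC states and Krt16 lower in tHFSC. Krt6a, a type II keratin of activated keratinocytes and of the follicle, read 0.96, 2.20 and 3.72 on the tHFSC arrays, 1.06, 1.77 and 3.12 on the aHFSC arrays, and -1.83, -4.54, -3.66 and -3.42 on the IFE arrays, 3 of which were above background. No HFSC array reaches down to the IFE arrays. Krt6a was higher by 5.498 ± 0.622 in tHFSC (limma adjusted p = 0.00203) and 5.15 ± 0.62 in aHFSC (limma adjusted p = 0.00295). Both calls held in each of the 16 fits that left out 1 array.

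Krt17, a type I keratin that pairs with Krt6 in the follicle, read 5.59, 5.95 and 6.76 on tHFSC, 6.01, 6.46 and 6.86 on aHFSC, and 4.26, 5.18, 2.83 and 3.81 on IFE arrays, with no overlap. It was higher by 2.02 ± 0.23 in tHFSC (limma adjusted p = 0.00207) and 2.41 ± 0.23 in aHFSC (limma adjusted p = 0.000942), and no single array left out ended either call. Krt6b, a close copy of Krt6a, was above its IFE values on every HFSC array, but the differences of 1.43 ± 0.47 and 1.39 ± 0.47 did not pass (limma adjusted p = 0.119 and 0.158), and its second probe gave -1.09 for tHFSC and 1.48 for aHFSC, neither of which passed.

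Krt16, the type I wound keratin, did not follow Krt6a. It read -2.81, -0.27 and 2.49 on tHFSC arrays, -1.42, 2.70 and 4.56 on aHFSC arrays, and 3.35, 2.41, 0.08 and 0.61 on IFE arrays, which overlap both. It was lower in tHFSC by -2.78 ± 0.62 (limma adjusted p = 0.0322, lower in 3 of 4 backgrounds), a call lost on leaving out any of 11 arrays (adjusted p up to 0.124; the exceptions were control aHFSC and the hCOL17A1 HFSC arrays), and gave -0.29 ± 0.62 in aHFSC (limma adjusted p = 0.860). Within the IFE arrays it was higher in the young pair (3.35 and 2.41) than in the aged pair.

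**Figure D2:**
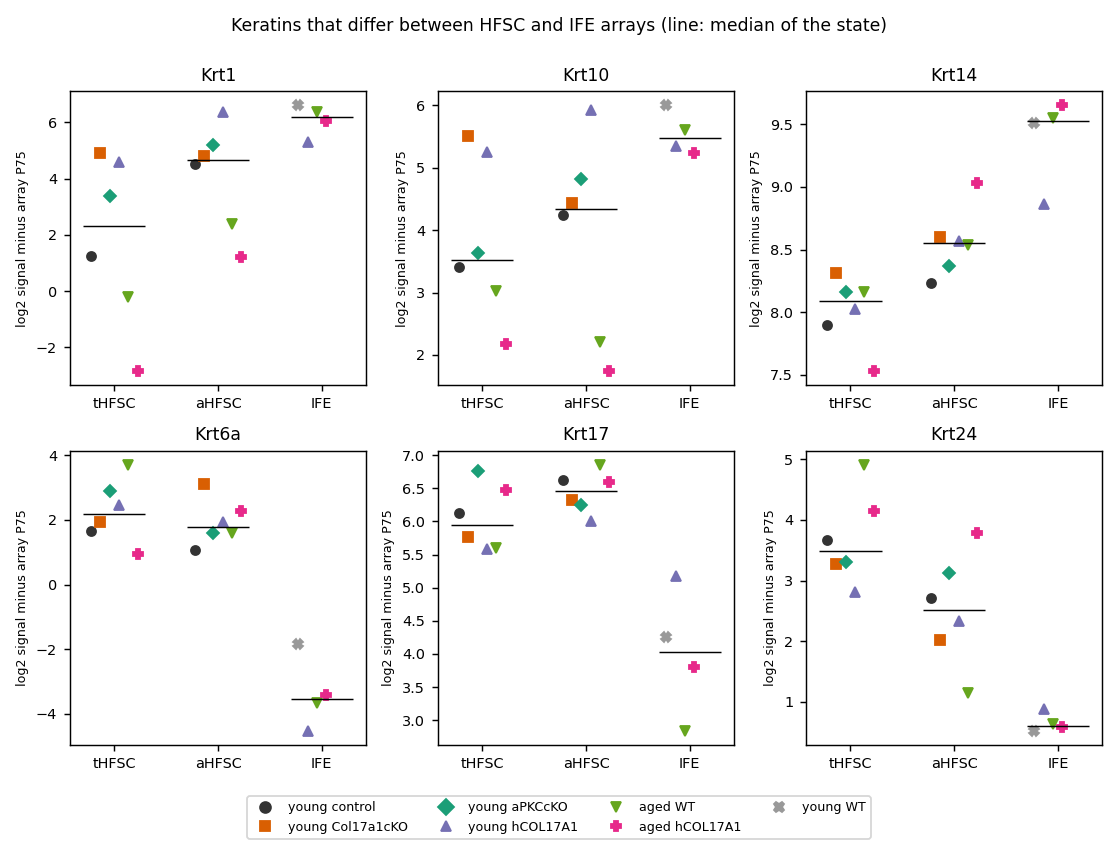
Log2 level (vertical axis, 0 being the array's 75th percentile) of Krt1, Krt10, Krt14, Krt6a, Krt17 and Krt24 on the tHFSC, aHFSC and IFE arrays (horizontal axis); each point is 1 array, marked by background, and lines are medians of a state. Krt6a, Krt17 and Krt24 show no overlap between HFSC and IFE, and Krt1 spans -2.86 to 4.92 over the 6 tHFSC arrays.

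Among the keratins of other tissues and of unsettled place, Krt24, a type I keratin, was higher in tHFSC and Krt42, a type I keratin of the same cluster, lower. Krt24 read 2.81, 3.49 and 4.91 on tHFSC, 1.15, 2.52 and 3.78 on aHFSC, and 0.52, 0.88, 0.63 and 0.58 on IFE arrays, with no overlap. The differences were 3.12 ± 0.51 for tHFSC (limma adjusted p = 0.00947; 0.0550 at most without the young hCOL17A1 or aged WT IFE array) and 1.96 ± 0.51 for aHFSC (limma adjusted p = 0.0732). Krt42 read 1.87, 2.43 and 2.99 on tHFSC, 2.57, 3.09 and 3.44 on aHFSC, and 4.25, 3.59, 4.46 and 4.34 on IFE arrays. It was lower by -1.75 ± 0.20 and -1.17 ± 0.20 (limma adjusted p = 0.00210 and 0.0149). The aHFSC call was lost (adjusted p up to 0.0606) without the control, young hCOL17A1 or aged WT aHFSC array, or the young WT or aged hCOL17A1 IFE array. Its second probe, with a mean of -4.13 and above background on 9 arrays, gave 0.38 and 0.12, so the Krt42 result belongs to 1 probe.

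Krt79, a keratin of the upper follicle, read 3.93, 4.82 and 5.53 on tHFSC and 3.30, 5.64, 3.73 and 4.03 on IFE arrays; its differences of 0.31 and 0.73 did not pass. Krt13, a keratin of mucosal epithelia, was bright on all arrays (7.23 to 8.54) and gave -0.33 and -0.53, neither of which passed. Krt222, a keratin-like gene, read 8.17 to 9.12 on every array, but its probe holds a 22-base run of the 2 bases ac, 16 bases of which recur in 102 other probes, so its level may not be that of 1 transcript. Krt4, Krt12 and Krt76, of mucosa, cornea and palate, gave no call, and Krt76 was above background on 2 arrays.

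The hair keratins Krt85, Krt81 and Krt32 were called lower in both states, and the first 2 have probes so alike that their sequences belong beside the values.
Krt85: tgaactccaagctggcactggacatcgaga
Krt81: tgaactccaagctggGGctggacGtTgaga
Krt83: tgaactccaagTtggGGctggaTGtcgaga
The lines show 30 bases of each probe (bases 16 to 45, 19 to 48 and 14 to 43), with capitals where a base differs from Krt85, 4 in Krt81 and 5 in Krt83. Over their whole overlap the Krt85 and Krt81 probes match at 51 of 57 bases and the Krt83 and Krt81 probes at 51 of 55. Krt85, the first keratin of the hair matrix, read 2.56, 2.83 and 3.17 on tHFSC, 2.31, 2.91 and 3.11 on aHFSC, and 4.14, 3.81, 4.52 and 4.36 on IFE arrays. It was lower by -1.45 ± 0.18 and -1.43 ± 0.18 (limma adjusted p = 0.00352 and 0.00414).

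Krt81, a keratin of the hair cortex, read 1.32, 1.74 and 1.99 on tHFSC, 1.44, 1.60 and 1.96 on aHFSC, and 2.96, 2.70, 3.23 and 3.06 on IFE arrays, and was lower by -1.33 ± 0.17 and -1.38 ± 0.17 (limma adjusted p = 0.00384 and 0.00357). Neither gene overlaps between HFSC and IFE. Krt83, which the RefSeq table lists under another symbol (Krt87) and whose probe is as alike, was lower in 3 of 4 backgrounds in tHFSC and gave -0.57 ± 0.29 and -0.19 ± 0.29, which did not pass. The array design gave no readable chromosome position for the Krt85 probe used. The other 2 Krt85 probes gave -0.37 ± 0.24 and 0.56 ± 0.57 in tHFSC, neither of which passed (limma adjusted p = 0.483 and 0.686). In aHFSC they gave -0.30 ± 0.24 and 0.17 ± 0.57 and did not pass either (limma adjusted p = 0.606 and 0.925). The first of them was above background on all 16 arrays. Signal from these near copies may not be told apart by their probes, and the Krt85 and Krt81 results may be 1 signal.

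Krt32, a type I keratin of the hair cuticle, read -2.02, -0.31 and 0.89 on tHFSC, -1.11, 0.45 and 1.15 on aHFSC, and 0.86, 0.94, 0.81 and 1.19 on IFE arrays. It was lower by -1.70 ± 0.25 in tHFSC (limma adjusted p = 0.00649) and -1.12 ± 0.25 in aHFSC (limma adjusted p = 0.0428), the second lost on leaving out any array but the aged hCOL17A1 HFSC pair (adjusted p up to 0.145). The 4 aged HFSC arrays were the lowest for Krt32, between -2.02 and -0.76. Krt33a, a cortex keratin, was above background on 0 aHFSC arrays, on 2 tHFSC and on 3 IFE arrays, and its difference between aHFSC and IFE did not pass (limma adjusted p = 0.0749). The hair group as a whole had medians of -0.18 and -0.33 over 15 genes, 3 lower calls each and no higher call.

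The companion, inner root sheath and simple epithelial keratins gave no call in either comparison. Krt75, the type II keratin of the companion layer between the root sheaths, was above background on 5 arrays only: those of control, Col17a1 knockout and young hCOL17A1 tHFSC at -0.67, -3.87 and -1.74, of Col17a1 knockout aHFSC at -3.78, and of young hCOL17A1 IFE at -2.33. The differences from IFE were 0.48 ± 0.96 and -1.71 ± 0.96 (limma adjusted p = 0.842 and 0.406), and the first turned negative (down to -0.29) without the control or young hCOL17A1 tHFSC or the young WT or aged hCOL17A1 IFE array.

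The 7 measured inner root sheath keratins had medians of -0.0013 and -0.12. Krt27 and Krt71 of that set gave 1.33 ± 0.51 and 1.47 ± 0.57 in aHFSC, which did not pass (limma adjusted p = 0.211 and 0.222). The 6 simple epithelial keratins had medians of -0.10 and 0.05. Krt8, Krt18 and Krt20, the keratins of Merkel cells, the touch receptors of the skin, read -4.12 to -1.88, -3.32 to -1.77 and -4.85 to -3.26 over all arrays. Of 8 Merkel cell markers 6 were tested. Atoh1 and Sox2 were left out because they were not well above background on at least 2 arrays. Levels of the 6 were summed on the linear scale, 1 being the 75th percentile of the array. The sum was 1.12 to 1.57 in tHFSC, 1.26 to 1.69 in aHFSC and 1.08 to 1.60 in IFE. Krt19, a keratin of the bulge and of Merkel cells, read -3.81, -3.03 and -2.25 on tHFSC and -2.83, -2.77, -3.21 and -3.43 on IFE arrays, which overlap.

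The genes around the keratins were counted from lists of their anchors, regulators and bundling proteins. Of 16 anchors of keratin filaments, the desmosome and hemidesmosome proteins, 3 were called lower in tHFSC than in IFE and 6 in aHFSC, none higher, with medians of -0.59 and -0.69. Of all genes, 4.3% were called lower in tHFSC and 2.68% in aHFSC. Dsg1a, a desmosomal cadherin of differentiating layers, was lower by -3.21 ± 0.44 and -3.55 ± 0.44, and Perp, a desmosomal membrane protein, by -0.59 ± 0.10 and -0.60 ± 0.10. Pkp1, a plakophilin, was lower in tHFSC by -1.80 ± 0.28, and Itgb4, the hemidesmosome integrin, in aHFSC by -1.20 ± 0.23.

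Of 16 regulators of keratin genes, 3 were called higher and 4 lower in each state. Of all genes, 2.1% were called higher and 4.3% lower in tHFSC, and 1.64% and 2.68% in aHFSC. Lhx2 and Sox9, HFSC transcription factors that also serve as markers of bulge stem cells, were higher by 7.48 ± 0.17 and 4.67 ± 0.17 in tHFSC. Hoxc13, a factor that binds hair keratin promoters, was higher by 3.93 ± 0.40 in aHFSC (limma adjusted p = 0.00136), in 4 of 4 backgrounds. Gata3 and Tfap2c, factors of epidermal differentiation, were lower by -1.92 ± 0.22 and -3.84 ± 0.42. Of 14 cornification genes only Calml3, a calmodulin-like protein of keratinocytes, was called higher (4.40 ± 0.35 and 3.79 ± 0.35) and only Krtdap, a protein of differentiating keratinocytes, lower (-1.74 ± 0.28 and -1.72 ± 0.28). Of 41 keratin-associated protein genes tested, Krtap17-1 alone was called, in tHFSC.

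The next comparison is between the 2 follicle states within each of the 6 backgrounds. Here 1 of 51 keratins passed, a lower one, where 0.547% of all genes passed, 0.389% higher and 0.158% lower. At an unadjusted p under 0.05 there were 10 keratins. In 9 of 51 keratins the sign was the same in all 6 pairs, 4 higher and 5 lower in aHFSC, against 9.34% of all genes. The keratin median was -0.06 and that of all genes -0.09.

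Krt80, a type II keratin made in many epithelia and in the differentiating follicle, was the keratin that passed. On the tHFSC arrays it read 4.64, 5.02 and 5.58, and on the aHFSC arrays 2.08, 2.89 and 3.95, so every aHFSC array lies below every tHFSC array. The differences within pairs were -1.94 in control, -1.98 in Col17a1 knockout, -1.33 in aPKCλ knockout, -1.02 in young hCOL17A1, -2.73 in aged WT and -3.50 in aged hCOL17A1. The fitted difference was -2.08 ± 0.32 (limma adjusted p = 0.0363). The call was lost on leaving out any of the 12 HFSC arrays (adjusted p up to 0.128), while the difference stayed between -2.30 and -1.80. Against IFE, which read 4.88, 3.36, 5.22 and 4.77, Krt80 was lower in aHFSC by -1.62 ± 0.37 (limma adjusted p = 0.0469, up to 0.159 on leaving out 1 array, and lost with any but young hCOL17A1 aHFSC and aged hCOL17A1 tHFSC) and in tHFSC gave 0.46 ± 0.37 (limma adjusted p = 0.545).

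Krt16 and Krt1 gave the largest positive state differences among keratins. For Krt16 the aHFSC array was above its tHFSC partner in 6 of 6 pairs, by 0.72 to 5.00; the control pair read -2.81 and 2.19, the Col17a1 knockout pair 1.28 and 4.56, and the young hCOL17A1 pair 2.49 and 3.21. The difference of 2.49 ± 0.53 did not pass (limma adjusted p = 0.0962). For Krt1 it was above in 5 of 6, with the Col17a1 knockout pair at 4.92 and 4.79 as the exception, and the difference of 2.24 ± 0.47 did not pass either (limma adjusted p = 0.0962). Krt10, the partner of Krt1, gave 0.06 ± 0.31, with 3 pairs each way. Flg, a cornification gene that bundles keratin filaments, gave 2.41 ± 0.64 (limma adjusted p = 0.163).

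In the basal pair, Krt14 was higher in aHFSC in 6 of 6 pairs (0.54 ± 0.17, limma adjusted p = 0.237) while Krt5 gave -0.05 ± 0.08. Krt15 was lower in 6 of 6 pairs, by -0.59 to -0.09, with a fitted -0.40 ± 0.10 that did not pass (limma adjusted p = 0.158). It did pass under quantile normalization (limma adjusted p = 0.0262) and without the aged hCOL17A1 aHFSC and young hCOL17A1 IFE arrays (limma adjusted p = 0.0447). Krt24 was lower in 6 of 6 pairs (-1.17 ± 0.43, limma adjusted p = 0.309) and Krt42 higher in 6 of 6 (0.58 ± 0.17, limma adjusted p = 0.199).

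Krt6a and Krt17 gave -0.34 ± 0.53 and 0.39 ± 0.20. Krt6b gave -0.04 ± 0.40 with its brighter probe and 2.57 ± 0.89 with its second one (limma adjusted p = 0.293), so its direction depends on the probe. Krt75 gave -2.18 ± 0.82 (limma adjusted p = 0.316) and was lower in 4 of 6 pairs.

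**Figure D3:**
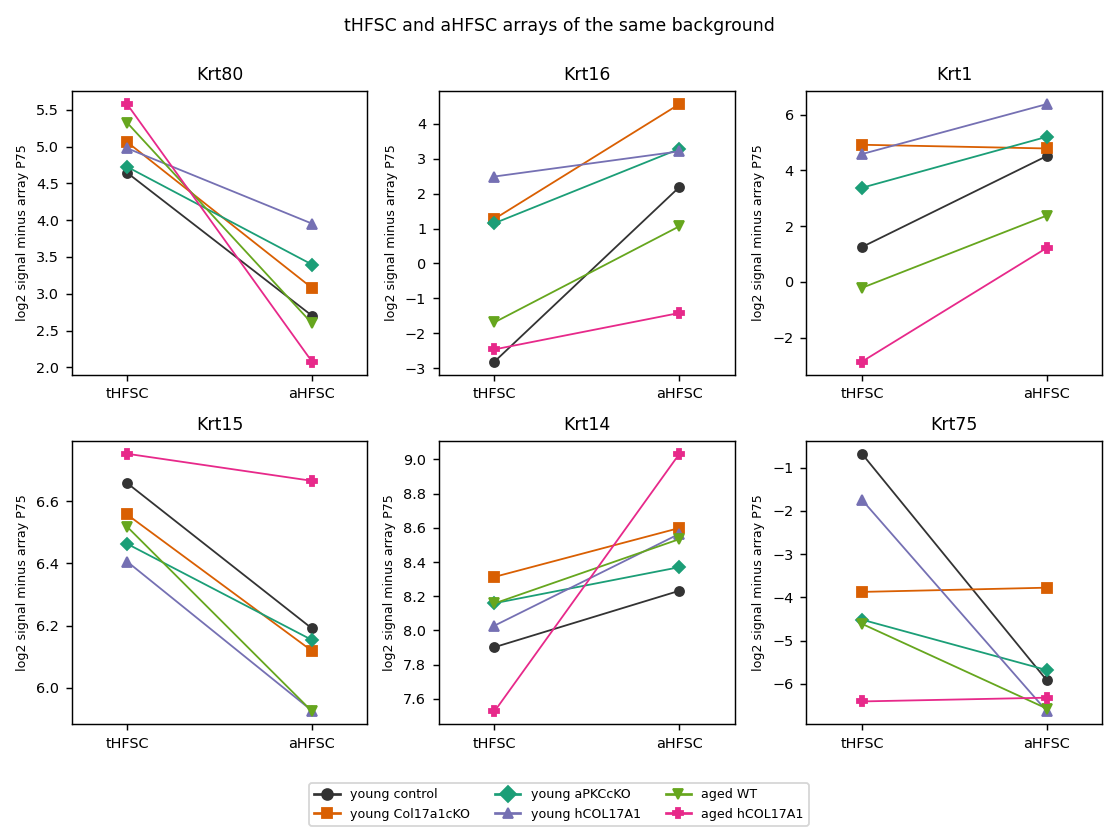
Log2 level (vertical axis) of Krt80, Krt16, Krt1, Krt15, Krt14 and Krt75 on the tHFSC and aHFSC arrays (horizontal axis), with a line joining the arrays of 1 background. The aHFSC end is the lower one in all 6 pairs for Krt80 and Krt15 and the higher one in all 6 for Krt16 and Krt14; of these genes only Krt80 passed the test.

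Whether the state difference itself differs with age was tested with an added term. None of the 31612 genes passed (0.0%), with 1962 at an unadjusted p under 0.05, 6 of them keratins. Krt27 and Krt71, the type I and type II keratins of the inner root sheath, had their highest values on both aged aHFSC arrays. Krt27 read 0.12 and -0.23 on the aged WT and aged hCOL17A1 aHFSC arrays, between -3.31 and -2.44 on the tHFSC arrays and between -3.21 and -2.30 on the young aHFSC arrays. Its state difference was -0.09 to 0.77 in the 4 young pairs and 2.56 and 3.00 in the aged pairs, a difference of 2.47 ± 0.40 (limma adjusted p = 0.498). Krt71 read -1.86 and -1.24 on the same 2 arrays against -4.13 to -2.79 on the young aHFSC arrays, with state differences of 2.24 and 2.82 in the aged pairs, and did not pass (limma adjusted p = 0.745).

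The other inner root sheath keratins did not follow them: Krt28 gave -1.37 ± 0.56 in the same test, and Krt73 read -0.42 and -1.05 on the aged aHFSC arrays against -0.48 to -0.32 on the young ones. Tchh, trichohyalin, the matrix protein of the inner root sheath, read -3.02 and -1.30 on the aged aHFSC arrays, within its range of -5.13 to -1.06 over the aHFSC arrays. Krt19 went the opposite way, higher in aHFSC in 4 of 4 young pairs and lower in both aged pairs (limma adjusted p of the difference 0.638). In HFSC, age and slide cannot be told apart, although both arrays of a pair lie on 1 slide.

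**Figure D4:**
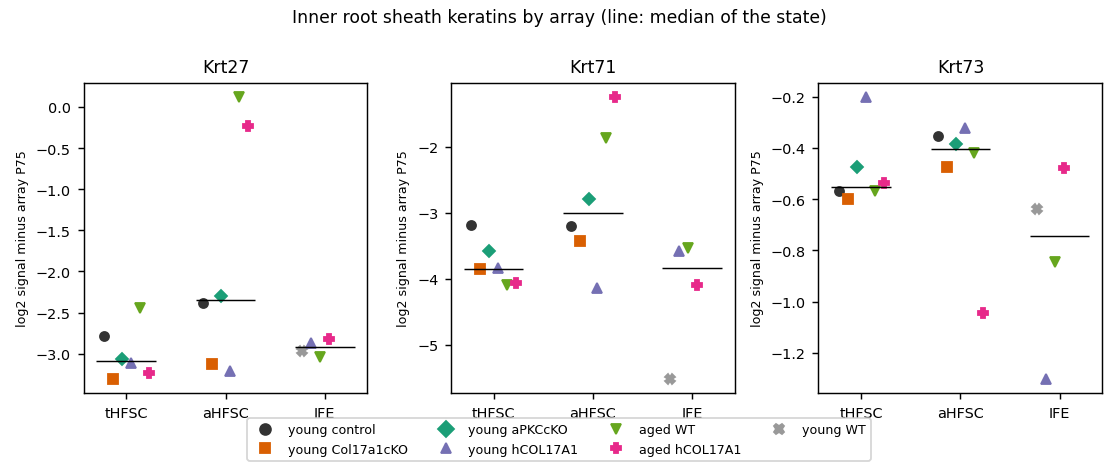
Log2 level (vertical axis, a separate scale per gene) of the inner root sheath keratins Krt27, Krt71 and Krt73 on tHFSC, aHFSC and IFE arrays (horizontal axis); each point is 1 array and lines are medians of a state. Both aged aHFSC arrays lie above all others for Krt27 (0.12 and -0.23) and Krt71 (-1.86 and -1.24), but not for Krt73.

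Because Krt27 and Krt71 had their highest values on the same arrays, the 250 bases before their start sites are shown, from RefSeq on GRCm38.p6, with those of Krt10 and Krt24 from the groups above. Capitals mark 3 motifs on either strand: the TATA box TATAAA, the GATA site (letters AGATAA) and the CCAAT box, which reads ATTGG on the other strand.
Krt27: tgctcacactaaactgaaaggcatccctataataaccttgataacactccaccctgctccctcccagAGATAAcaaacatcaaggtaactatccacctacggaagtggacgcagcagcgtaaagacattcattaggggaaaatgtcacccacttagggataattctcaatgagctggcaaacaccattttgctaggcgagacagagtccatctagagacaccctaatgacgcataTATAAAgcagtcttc
Krt71: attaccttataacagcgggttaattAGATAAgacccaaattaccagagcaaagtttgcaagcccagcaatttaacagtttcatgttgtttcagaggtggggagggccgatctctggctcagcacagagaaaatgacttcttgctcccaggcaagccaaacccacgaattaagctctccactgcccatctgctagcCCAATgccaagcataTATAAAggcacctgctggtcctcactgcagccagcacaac
Krt10: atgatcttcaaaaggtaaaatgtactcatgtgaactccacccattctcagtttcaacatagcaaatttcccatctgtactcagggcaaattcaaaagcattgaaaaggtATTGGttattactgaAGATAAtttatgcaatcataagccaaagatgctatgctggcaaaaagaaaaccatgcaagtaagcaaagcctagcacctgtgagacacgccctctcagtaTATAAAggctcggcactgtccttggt
Krt24: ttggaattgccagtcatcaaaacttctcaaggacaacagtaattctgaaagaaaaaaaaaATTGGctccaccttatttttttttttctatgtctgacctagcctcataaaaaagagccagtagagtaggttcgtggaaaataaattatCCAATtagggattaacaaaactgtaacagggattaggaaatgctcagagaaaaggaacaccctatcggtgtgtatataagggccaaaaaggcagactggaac
They lie at chr11:99351119-99351368, chr15:101743098-101743347, chr11:99389365-99389614 and chr11:99285263-99285512, all on the minus strand. In Krt27 the TATAAA starts 15 bases and the AGATAA 183 bases before the start site, in Krt71 40 and 225 bases.

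Of the 52 keratins 35 had a promoter in the table, with 36 windows in all. TATAAA, the TATA box, was found in 47.2% of the keratin windows and in 12.4% of all 32851 windows of the same length. It was in 7 of 7 inner root sheath and 6 of 9 hair keratin promoters, but in 1 of 5 suprabasal and 0 of 2 basal ones. In Krt72 and Krt84, counted among these, the only match lies on the other strand, 203 and 206 bases before the start site. AGATAA, a match to the GATA site, was in 25.0% of keratin windows against 9.99% of all, among them 4 of 7 inner root sheath promoters (Krt25, Krt27, Krt71 and Krt73). CCAAT was in 38.9% against 33.8%, TGANTCA (AP-1) in 5.56% against 6.75% and GCCNNNGGC (AP-2) in 11.1% against 13.7%. Both strands were searched, and the CCAAT and TATAAA matches do not overlap in the windows printed. Krt73 holds TATAAA and AGATAA like Krt27 and Krt71, while its level on aged aHFSC arrays was not raised. These are letter matches, not sites shown to be bound.

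The last set of questions concerns genotype and age, where each comparison rests on 2 pairs of arrays. None of the 7 comparisons called a keratin or any other gene (limma adjusted p under 0.05): 0.0% of 31612 in Col17a1 knockout, aPKCλ knockout and young hCOL17A1 HFSC against young control, 0.0% in aged hCOL17A1 against aged WT HFSC, 0.0% in aged WT against young control HFSC, and 0.0% in IFE by age and by transgene. At an unadjusted p under 0.05 there were 1283, 1093, 2158, 3807, 1590, 1998 and 1723 genes in that order, of which 3, 3, 5, 10, 4, 8 and 4 were keratins. The first 3 and the fifth share the 2 control arrays.

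One control array was low for a wound keratin, which enters each of them. Krt16 on the control tHFSC array was the lowest of all arrays (-2.81), against 1.28 in Col17a1 knockout, 1.15 in aPKCλ knockout and 2.49 in young hCOL17A1 tHFSC. The aHFSC arrays read 2.19 in control and 4.56, 3.28 and 3.21 in the same order, all above control too. The fitted differences were 3.23 ± 0.91, 2.53 ± 0.91 and 3.16 ± 0.91, with a smallest limma adjusted p of 0.519.

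Of the 7 suprabasal keratins, 4 ranked the 6 tHFSC arrays alike. From high to low the order of Krt1, Krt10, Krt77 and Krt78 was Col17a1 knockout, young hCOL17A1, aPKCλ knockout, young control, aged WT and aged hCOL17A1. Krt1 read 4.92, 4.59, 3.38, 1.25, -0.21 and -2.86 in that order, and Krt10 5.51, 5.25, 3.64, 3.41, 3.03 and 2.18. Krt80 was instead highest in aged hCOL17A1 (5.58) and aged WT (5.325) and lowest in young control (4.645). Krt2 was highest in aPKCλ knockout (-0.90) and Krt9 in young control (-3.72). Krtdap, a differentiation gene that is no keratin and 1 of the 14 cornification genes, had the same order (7.46 to 3.82). The summed linear level of the 14 did not: it was 214 in aPKCλ knockout and 246 in young control tHFSC. The share of all genes with this order was not computed. On the aHFSC arrays Krt1, Krt10 and Krt78 shared the order young hCOL17A1, aPKCλ knockout, Col17a1 knockout, young control, aged WT and aged hCOL17A1.

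Ly6a, which encodes the Sca1 that the HFSC gate excludes, had the same order on the tHFSC arrays. It read 1.02, -0.05, -0.51, -1.67, -3.42 and -3.55 there, against 3.28 to 4.23 on IFE arrays. On the aHFSC arrays it read -0.33 in young hCOL17A1 and -1.27 in Col17a1 knockout, and -4.85 to -2.92 on the other 4. The summed level of the 14 cornification genes ran from 134 on the aged hCOL17A1 to 494 on the Col17a1 knockout tHFSC array, from 109 to 690 in aHFSC (the highest young hCOL17A1) and from 106 to 472 in IFE. The summed linear level of 6 Langerhans and myeloid markers, all tested, was 2.22 in control, 13.3 in Col17a1 knockout and 9.90 in young hCOL17A1 tHFSC. It was 3.39, 3.49 and 20.1 in the same aHFSC, with 1.21 to 7.13 in IFE. In aPKCλ knockout, aged WT and aged hCOL17A1 it was 4.16, 2.55 and 4.19 in tHFSC and 4.02, 1.07 and 1.64 in aHFSC. For the T cell markers, 2 of 3 of which were tested, the first 3 backgrounds had sums of 1.15, 2.35 and 2.05 in tHFSC. In aHFSC these were 0.711, 1.60 and 2.20. In aPKCλ knockout, aged WT and aged hCOL17A1 the T cell sums were 0.935, 0.968 and 0.666 in tHFSC and 0.871, 0.629 and 0.380 in aHFSC. The part of Sca1-positive, differentiated or immune cells in these keratin levels was not tested.

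In Col17a1 knockout HFSC 5 of 7 suprabasal keratins were above control by the fitted difference over both states, with a median of 1.15. Of all genes 41.1% were above control, with a median of -0.09. Krt1 differed by 3.67 in tHFSC and 0.27 in aHFSC, and Krt77 by 2.77 and -0.45. In aPKCλ knockout HFSC 7 of 7 were above control by the fitted difference, with a median of 0.40. Of all genes 53.1% were above control, with a median of 0.03. Not every pair followed: Krt9 differed by -1.31 in tHFSC and 1.82 in aHFSC, and Krt2 by 0.33 and -0.06. In young hCOL17A1 HFSC 6 of 7 were above control by the fitted difference, with a median of 1.21. Of all genes 50.8% were above control, with a median of 0.01. Krt9, counted as above, differed by -0.44 in tHFSC and 1.64 in aHFSC. Krt1 gave 2.60 ± 0.82 and Krt10 1.76 ± 0.54 (limma adjusted p = 0.571 and 0.549), both higher in 2 of 2 pairs. RU486, and for aHFSC hair plucking, are given for the control arrays and not mentioned for the young hCOL17A1 ones. Transgene and these treatments cannot be told apart in this comparison. In aged hCOL17A1 HFSC 7 of 7 were below aged WT by the fitted difference, with a median of -0.98. Of all 31612 genes 20068 were below aged WT, with a median of -0.23. On the tHFSC arrays Krt2 and Krt80 were above aged WT, by 0.19 and 0.25. Krt1 gave -1.90 ± 0.82, Krt77 -2.79 ± 0.92 and Krt78 -2.05 ± 0.76 (limma adjusted p = 0.405, 0.316 and 0.350). The tHFSC and aHFSC pairs differed by -1.60 and -3.98 for Krt77, by -0.64 and -3.455 for Krt78, and by -2.65 and -1.16 for Krt1. Without the aged hCOL17A1 aHFSC array Krt77 gave -1.69 and Krt78, which was not above background there, -0.71; with normexp Krt78 gave -0.30. Under quantile normalization, which gives every array the same distribution, the all-gene median of this comparison was -0.01.

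The transgene difference was therefore set against age in an added test, chosen after these values were seen. It called none of 31612 genes (0.0%), with 3362 at an unadjusted p under 0.05, of which 13 were keratins. In 12 of 51 keratins the transgenic array was above its partner in both young pairs and below it in both aged pairs, against 11.9% of all genes. They include 4 of 7 suprabasal keratins and 4 of 15 hair keratins (Krt33b, Krt34, Krt39 and Krt82). The keratin with the smallest adjusted p was Krt12, which was above background on only 6 arrays. Its young minus aged difference was 3.88 ± 0.75 (limma adjusted p = 0.262). The young minus aged difference was 4.50 ± 1.16 for Krt1, 2.42 ± 0.76 for Krt10, 4.84 ± 1.30 for Krt77, 3.25 ± 1.08 for Krt78 and 4.79 ± 1.29 for Krt16 (limma adjusted p = 0.331, 0.380, 0.338, 0.395 and 0.338). Krt23, a simple epithelial keratin, gave 5.49 ± 1.67, from 1.92 in the young to -3.57 in the aged comparison; it was above background on all HFSC arrays but the 2 aged hCOL17A1 ones, where it read -4.13 and -6.28. With normexp the aged value was -1.11 and the difference 2.86. Krt15 ran opposite, -0.26 in young and 0.49 in aged mice. The aged hCOL17A1 arrays were those with the fewest spots above background. The young and aged pairs lie on different slides and differ in RU486 and, for aHFSC, in the hair plucking that the labels give. The part of these was not tested.

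**Figure D5:**
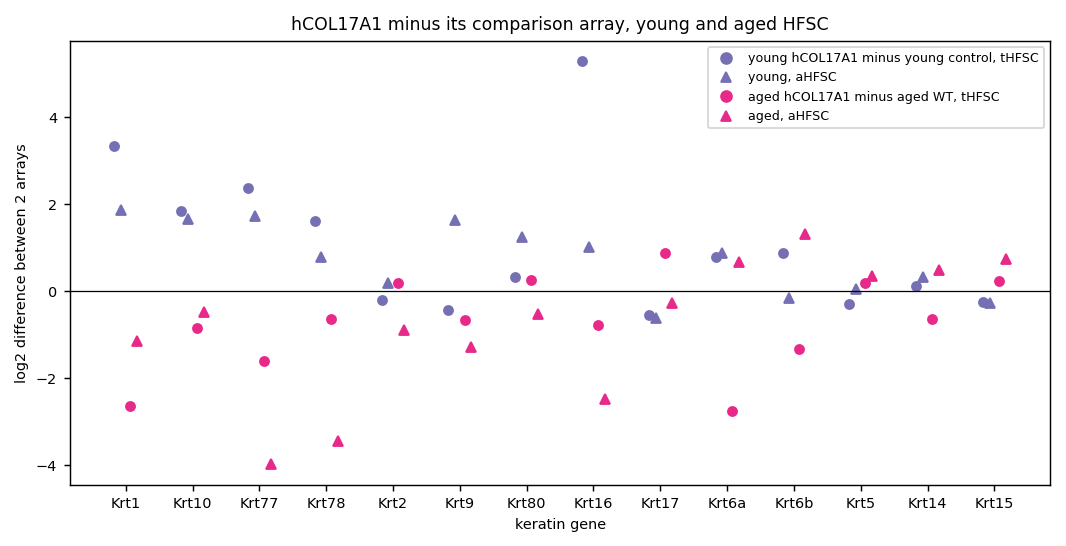
Log2 difference of each hCOL17A1 array from its comparison array of the same state (vertical axis) for the suprabasal, wound and basal keratins (horizontal axis); circles are tHFSC, triangles aHFSC. Krt1, Krt10, Krt77, Krt78 and Krt16 lie above 0 in both young pairs and below 0 in both aged pairs, and no transgene-by-age difference passed the test.

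With age in WT HFSC, Krt32, the hair cuticle keratin, was different by -1.21 in tHFSC and -1.38 in aHFSC (-1.30 ± 0.37, limma adjusted p = 0.929), and 5 of 7 suprabasal keratins were lower with a median of -1.01 against 0.00 over all genes. Of all 31612 genes 15791 were lower in that comparison. Hair plucking is given for the control aHFSC array and not mentioned for the aged WT one. Age, slide, RU486 and, for aHFSC, plucking cannot be told apart there. The IFE arrays lie on 1 slide. Between their ages Krt17 differed by -1.42 in WT and -1.37 in hCOL17A1 mice (-1.40 ± 0.34, limma adjusted p = 0.749), Krt16 by -3.27 and -1.80 and Krt23 by -1.67 and -4.44. The suprabasal median was -0.05 there, while 13 of 14 cornification genes were lower in aged IFE with a median of -2.27. Of all 31612 genes 18115 were lower, with a median of -0.11. The hCOL17A1 side of these values, that of Krt23 included, uses the young hCOL17A1 array that stood apart. The cornification sum was 472 on that array, against 238 on young WT, 166 on aged WT and 106 on aged hCOL17A1 IFE. Between transgenic and WT IFE Krt17 was higher by 0.93 and 0.98 and Krt79 by 2.34 and 0.30 (limma adjusted p = 0.845 each), the larger Krt79 value resting on the young hCOL17A1 array that stood apart.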

How the data were processed

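For each of the 16 arrays the authors deposited the scanner output, per the file headers of Agilent Feature Extraction 11.5.1.1, with an intensity per spot that is background-subtracted and not scaled between arrays, and flags for spots well above background. A deposited table of log2 values holds the same arrays, and its 0 columns of no sample leave nothing out. The labels' protocols give sorted cells, whole-transcriptome amplification and Cy3 labelling; amplification can alter ratios of rare transcripts, and the number of arrays limits the precision. From the processed signal, control and outlier spots were dropped, log2 was taken, the array's 75th percentile subtracted and spots of a probe averaged; 49883 of 55681 probes were kept (well above background on at least 2 arrays). Missing probes of the truncated file, 9264, were filled from the table.

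One limma fit (limma 3.58.1, R 4.3.3; lmFit, eBayes with trend) of 31612 gene names had a term for each of 6 HFSC backgrounds, a common state shift, and IFE terms for intercept, age and transgene, leaving 6 residual degrees of freedom; state by age was added with 5. Tests were two-sided, Benjamini-Hochberg adjusted over all genes, at 0.05, and the script was tested on simulated data. Replicates are absent: each group is 1 array. All members may be named; of other genes, sort and target genes, Merkel markers, and up to 4 called genes of a list and comparison; Tchh and Flg were named after their values were seen. The members, groups and lists were chosen with earlier results of these data known. Alternatives covered background correction, normalization, filter, probe choice, arrays entered, slide and prior variance. Probes and promoters were read from the files and RefSeq (GRCm38.p6); 50 of 52 probe accessions matched RefSeq genes.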

Additional observations from a re-analysis of the deposited data

Results flagged for a closer look

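On 6 of 81 combinations of 27 keratins with a state, 1 array lay far from the others of that state. Chance gives such a gap in about 1 in 20. The 27 were the basal, suprabasal, wound and companion keratins and others picked from those named above. Because the list was picked from these same data, that rate is no test of it, and the share over all genes was not computed. On the aged hCOL17A1 aHFSC array, Krt5 read 8.65 (others 8.13 to 8.30), Krt15 6.66 (others 5.92 to 6.19) and Krt79 3.61 (others 5.23 to 5.83). The Col17a1 knockout aHFSC array read -3.78 for Krt75 (others -6.64 to -5.69), the aged WT aHFSC array 2.31 for Krt85 (others 2.84 to 3.11), and the young hCOL17A1 IFE array 1.36 for Krt6b (others 2.81 to 3.01).

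In 11 of 54 contrasts looked at, all young pairs moved one way and all aged pairs the other; in limma tests of the difference, none passed for any gene. Over all genes, 5902 of 31612 had opposite transgene differences in young and aged HFSC in this way, as had 15 of all 51 keratins. The state difference of Krt19 averaged 0.69 in young and -1.31 in aged pairs, a gap of 2.0. The transgene difference in young minus that in aged HFSC was 4.50 for Krt1, 2.42 for Krt10, 4.84 for Krt77, 3.25 for Krt78, 4.79 for Krt16, 5.49 for Krt23 and 1.498 for Krt79. It was negative for Krt13 at -0.70, Krt15 at -0.74 and Krt71 at -1.11.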

How the results depend on the processing

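Over the 24 called keratin results, 22 kept their direction under every alternative run, and 166 of 676 alternative values lost the call; 12 results kept it in every fit that left out 1 array. The exceptions in direction were both Krt42 results, 0.38 and 0.12 with its second probe. Keratins called between the states, 1 in all, were 2 under quantile normalization, 0 without an eBayes trend and 0 on slide 1 or slide 2 alone, and 0 to 1 with 1 array left out. The 12 keratins called in tHFSC against IFE were 6 with only the arrays of those states, 1 on slide 2 alone and 10 with a slide term, and 8 to 13 with 1 array left out (8 without the young hCOL17A1 or aged WT IFE array); the 11 in aHFSC were 2, 0, and 6 with a slide term, and 5 to 13 with 1 array left out (5 without the young hCOL17A1 or aged WT IFE array). Fits on 1 slide, on the states compared or with 1 array left out use fewer arrays; for the others the cause was not tested. Of uncalled values, Krt6b between states turned to 1.27 with the mean of its probes, 2.57 with its second probe, 0.20 on slide 1 alone, and ran from -0.32 to 0.32 with 1 array left out, and in tHFSC against IFE to -1.09 with its second probe. Krt15 in tHFSC against IFE turned to 0.020 with normexp, 0.40 with quantile normalization, 0.027 with a slide term and 0.10 without the 2 arrays that stood apart, and ran from -0.17 to 0.12 with 1 array left out; Krt75 turned to -0.42 on slide 2 alone and ran from -0.29 to 1.24 with 1 array left out. The second probes and the fits without those 2 arrays were chosen after seeing the data. No analysis paired by replicate number was possible, because every group has only the replicate number 1. The 2 follicle states are paired by background within the fit itself.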
